A study of Rattus norvegicus with 6 samples.

Results

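The PGC-1 coactivators, the PPAR and ERR nuclear receptors and the mitochondrial factors NRF1 and TFAM were examined as 1 group of 10 genes in rat gastrocnemius, a mixed hindlimb muscle in which fast fibers predominate. The genes were taken by symbol from a table of 26406 Ensembl genes, and all 10 were found (Ppargc1a, Ppargc1b, Ppara, Ppard, Pparg, Esrra, Esrrb, Esrrg, Nrf1 and Tfam). The animals were 6 male Sprague Dawley rats of the Crl:SD stock, and all had a venous and an arterial catheter and free access to chow. In the olanzapine group (rats 4, 10 and 12) the antipsychotic olanzapine was infused in saline, first as a loading dose of 1 mg per 100 g body weight within 0.5 h, then continuously for 23.5 h, each hour delivering 0.04 mg per 100 g. The vehicle group (rats 3, 9 and 11) received vehicle alone on the same schedule. Each library came from the muscle of 1 rat, and the comparison asks how 24 h of olanzapine affected the messenger RNA of these regulators of oxidative metabolism.

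PGC-1α and PGC-1β are coactivators, proteins without a DNA-binding domain that are recruited to promoters by transcription factors. The PPARs are nuclear receptors that bind fatty acids and their derivatives and pair with RXR to drive genes of lipid uptake and fatty acid oxidation. The ERRs are orphan nuclear receptors that need no ligand, bind genes of the TCA cycle and respiratory chain, and depend on PGC-1 for much of their activity. In skeletal muscle PGC-1α is known for its induction by exercise and for raising mitochondrial content and slow, oxidative fiber genes in transgenic mice, and ERRγ is most abundant in oxidative fibers.

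Of the 10 genes, 9 have a start site in the RefSeq promoter table of the GRCr8 build, with 13 windows in all, each running from 250 bases before the start to 50 bases after it. A palindromic cAMP response element (TGACGTCA, read on both strands) stood in 1.83% of all 33469 promoter windows and, among the 10 genes, in that of Ppargc1a, 181 bases before the start. CREB, which binds this element, is a known inducer of Ppargc1a. The NRF1 motif (GCATGCGC, both strands) stood in 2.47% of all windows and, among these genes, in those of Esrra, 115 bases before the start, and Ppara, where it begins 100 bases before the start and is read on both strands in overlapping copies. The ERR response element TCAAGGTCA (0.433% of all windows, both strands) and the shorter AAGGTCA within it (4.61%), which other nuclear receptors also bind, were in none of the 13 windows. The windows of Ppargc1a (chr14:63634058-63634357, plus strand), Ppara (chr7:118712357-118712656, plus strand) and Esrra (chr1:213543256-213543555, minus strand) are printed because they hold a match, which is in capitals. The first of 4 Esrrg windows (chr13:101744485-101744784, plus strand) is printed because Esrrg showed the largest difference between the groups, and its capitals mark the 15 CG dinucleotides. All are GRCr8 sequences from RefSeq, written 5′ to 3′.
Ppargc1a: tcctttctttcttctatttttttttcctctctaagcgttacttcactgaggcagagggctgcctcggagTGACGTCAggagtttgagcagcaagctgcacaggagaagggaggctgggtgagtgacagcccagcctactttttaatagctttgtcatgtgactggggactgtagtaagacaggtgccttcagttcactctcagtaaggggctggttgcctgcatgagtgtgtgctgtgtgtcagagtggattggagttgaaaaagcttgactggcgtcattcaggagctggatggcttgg
Ppara: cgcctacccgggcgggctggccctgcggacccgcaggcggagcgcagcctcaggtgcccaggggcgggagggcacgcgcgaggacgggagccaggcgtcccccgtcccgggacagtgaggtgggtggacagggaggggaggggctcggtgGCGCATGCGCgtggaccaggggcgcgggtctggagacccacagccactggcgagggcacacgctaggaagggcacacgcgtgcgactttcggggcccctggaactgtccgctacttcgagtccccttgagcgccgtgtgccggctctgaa
Esrra: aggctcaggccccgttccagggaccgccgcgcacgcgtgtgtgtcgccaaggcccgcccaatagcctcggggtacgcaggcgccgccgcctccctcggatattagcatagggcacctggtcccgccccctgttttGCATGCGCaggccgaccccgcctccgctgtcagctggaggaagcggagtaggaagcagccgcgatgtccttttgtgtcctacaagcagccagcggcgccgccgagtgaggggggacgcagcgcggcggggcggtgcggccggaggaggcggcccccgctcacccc
Esrrg: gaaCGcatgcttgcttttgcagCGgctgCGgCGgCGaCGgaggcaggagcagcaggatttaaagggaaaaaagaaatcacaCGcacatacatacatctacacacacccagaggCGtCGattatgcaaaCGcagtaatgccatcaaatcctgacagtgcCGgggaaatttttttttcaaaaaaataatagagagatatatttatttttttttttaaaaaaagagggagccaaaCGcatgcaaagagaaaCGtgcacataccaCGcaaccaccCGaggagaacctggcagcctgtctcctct
The Ppara and Esrra windows are rich in G and C (73.7% with 32 CG dinucleotides, and 72% with 35), and the Ppargc1a window is not (50.3% with 4). The Esrrg window printed here has 45.3% with 15, and the other Esrrg windows have 75% with 36, 57.7% with 8 and 60% with 19. The median over all windows was 51.7% and 7 CG dinucleotides.

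Levels are given as FPKM, a count of sequenced fragments divided by the length of the gene's exons and by the size of the library. The lowest steps of the values placed the relative depth of the libraries between 0.444 and 1, vehicle rat 11 being the shallowest and vehicle rat 3 the deepest. Between 13996 and 14795 genes per rat were above 0. Skeletal muscle markers (5 of the 7 listed are in the table) summed to 59699-84793 FPKM in the olanzapine rats and 53059-74247 FPKM in the vehicle rats, and 3 of 5 liver markers were at 0 in every rat. The 10 slow fiber markers summed to 2830-7295 FPKM in the olanzapine rats and 18924-34210 FPKM in the vehicle rats, and 9 of them fell at an adjusted p under 0.05. This count was 4 with the rats scaled by size factors, 1 with no filter on low values, and 10 without olanzapine rat 4, 3 without olanzapine rat 10, and 1 without olanzapine rat 12 or without any 1 vehicle rat. All 10 had lower values in every olanzapine rat than in any vehicle rat under the deposited scaling. The 11 fast fiber markers summed to 110541-148067 FPKM in the olanzapine rats and 65309-84888 FPKM in the vehicle rats. None of the 11 passed an adjusted p under 0.05, and 8 were higher without overlap of the groups (72.7%, beside 5.12% of all tested genes). Myh4, Atp2a1 and Actn3 overlapped. Sums of endothelial, macrophage, fibroblast and blood cell markers overlapped between the groups. In whole muscle, fewer fibers or cells of a type and less RNA per cell cannot be told apart.

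None of the regulators changed at an adjusted p under 0.05 in limma, where 0.506% of the 10285 tested genes did (52 genes, 47 of them lower). Under the deposited scaling, every olanzapine rat was below every vehicle rat in Esrrg and Ppara. These were 2 of the 9 tested members (22.2%). Of all tested genes, 14.6% were lower without overlap and 5.12% higher, so that for 9 genes the count is near that share. The same 2 had an unadjusted limma p under 0.05, as did 9.45% of all tested genes in the lower direction and 3.79% in the higher. A Poisson likelihood ratio test on summed FPKM, which has no term for the spread between rats, called none of the 9 at an adjusted p under 0.05, where it called 7.91% of all tested genes, and Esrrg alone at an unadjusted p under 0.05, where it called 13.9%. Esrrb averaged under 1 FPKM and was not tested. The median log2 fold change of the 9 was -0.14, beside -0.11 over all tested genes, and with the rats scaled by median-ratio size factors it was 0.01 for both.

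**Figure D1:**
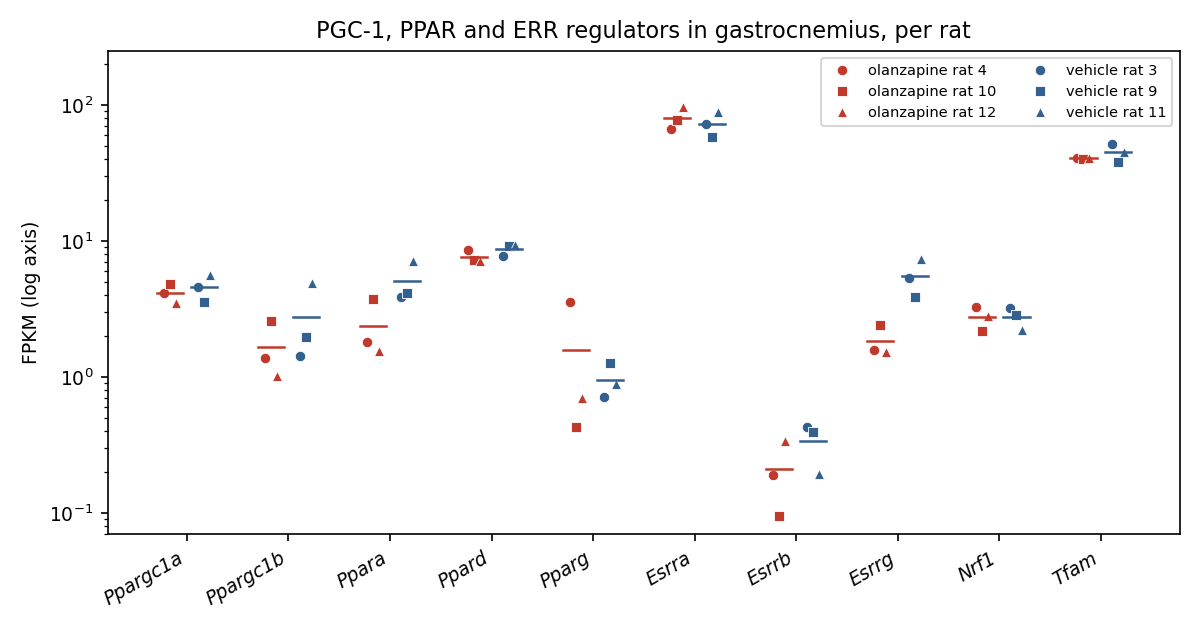
FPKM of the 10 regulators in each rat on a log axis, with olanzapine rats in red to the left of vehicle rats in blue and a horizontal bar at the mean of each group (n = 3). The points of Esrrg and Ppara, as deposited, do not overlap between the groups, and olanzapine rat 4 stands alone for Pparg at 3.58 FPKM.

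Ppargc1a, which encodes PGC-1α, was at 4.14, 4.83 and 3.49 FPKM in olanzapine rats 4, 10 and 12, against 4.60, 3.53 and 5.65 FPKM in vehicle rats 3, 9 and 11. The groups overlapped, and the means were 4.15 ± 0.666 FPKM in the olanzapine rats and 4.59 ± 1.06 FPKM in the vehicle rats (SD, n = 3 each). The log2 fold change, computed on log2(FPKM + 1) as for all genes here, was -0.11 with a 95% interval from -0.58 to 0.36 (limma adjusted p = 0.832). The table lists the gene (ENSRNOG00000004473) on Rn5 at chr14:63195103-63286096, and its FPKM do not separate the alternative transcripts that start from different first exons.

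Ppargc1b encodes PGC-1β, a homolog that drives mitochondrial genes and is less responsive to exercise. It was at 1.37, 2.60 and 1.01 FPKM in the olanzapine rats, against 1.43, 1.97 and 4.94 FPKM in the vehicle rats. The highest value came from vehicle rat 11, the shallowest library, and the others overlapped. The log2 fold change was -0.44 with an interval from -1.27 to 0.39 (limma adjusted p = 0.592), and without vehicle rat 11 it was -0.06. The locus is chr18:55857449-55959449.

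Ppara, the receptor that drives fatty acid oxidation in liver and muscle, was at 1.8, 3.76 and 1.56 FPKM in the olanzapine rats, against 3.89, 4.17 and 7.07 FPKM in the vehicle rats. Under the deposited scaling the groups did not overlap, but olanzapine rat 10 lay just under the lowest vehicle rat. Scaling by the size factors (0.932 for olanzapine rat 10, 1.08 for vehicle rat 3) puts olanzapine rat 10 above vehicle rat 3. The means were 2.37 ± 1.21 FPKM in the olanzapine rats and 5.04 ± 1.76 FPKM in the vehicle rats (SD, n = 3 each). The log2 fold change was -0.86 (standard error 0.30, limma adjusted p = 0.286), and its interval from -1.53 to -0.19 is not adjusted for the number of genes tested. Here too vehicle rat 11, the shallowest library, was highest, and without it the log2 fold change was -0.63. Ppara (ENSRNOG00000021463) lies at chr7:126330832-126392748.

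Ppard encodes PPARδ, the PPAR most abundant in skeletal muscle and a driver of oxidative genes there. It was at 8.54, 7.31 and 7.17 FPKM in the olanzapine rats, against 7.81, 9.12 and 9.41 FPKM in the vehicle rats, with overlap. Its log2 fold change was -0.17 with an interval from -0.55 to 0.20 (limma adjusted p = 0.649). Its locus is chr20:10018463-10083772.

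Pparg encodes PPARγ, the regulator of fat cell formation, and was low in most rats. It was at 3.58, 0.43 and 0.71 FPKM in the olanzapine rats, against 0.72, 1.27 and 0.89 FPKM in the vehicle rats. The mean difference rested on olanzapine rat 4, since the other olanzapine rats were below all vehicle rats (log2 fold change 0.20, interval from -0.74 to 1.15, limma adjusted p = 0.844). The adipocyte hormone gene Adipoq was at 36.6, 1.48 and 2.26 FPKM in the olanzapine rats, against 0.91, 25.5 and 1.49 FPKM in the vehicle rats, so that the highest Pparg of each group came from the rat with the highest Adipoq. The 10 adipocyte markers, of which none was at 0 in all rats, summed to 813, 253 and 441 FPKM in the olanzapine rats and 369, 453 and 280 FPKM in the vehicle rats. Olanzapine rat 4 and vehicle rat 9 again had the highest sums of their groups. Fabp4, the largest part of each sum (528, 218 and 403 FPKM against 315, 286 and 231 FPKM), was highest among vehicle rats in rat 3. So was Cidea, which was lower in all olanzapine rats (5.80, 2.35 and 1.53 FPKM against 20.4, 9.47 and 7.32 FPKM). The other adipocyte markers were highest in olanzapine rat 4 and vehicle rat 9 of their groups. The part of fat tissue in the Pparg values was not tested. The locus of Pparg is chr4:210564192-210688582.

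Esrra encodes ERRα, the main ERR of muscle, and was the most abundant of the 10 transcripts. It was at 66.8, 77.6 and 96.5 FPKM in the olanzapine rats, against 71.8, 58.1 and 88.1 FPKM in the vehicle rats. The groups overlapped (log2 fold change 0.15, interval from -0.34 to 0.64, limma adjusted p = 0.774). Its locus is chr1:229159583-229169579.

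Esrrg encodes ERRγ, which in mouse muscle drives oxidative and slow fiber genes. It was at 1.57, 2.40 and 1.52 FPKM in the olanzapine rats, against 5.38, 3.88 and 7.31 FPKM in the vehicle rats. All olanzapine rats lay below all vehicle rats, with a gap between 2.40 and 3.88 FPKM. The means were 1.83 ± 0.498 FPKM in the olanzapine rats and 5.52 ± 1.72 FPKM in the vehicle rats (SD, n = 3 each). The log2 fold change was -1.18 (standard error 0.24), its interval ran from -1.74 to -0.63, and the limma adjusted p of 0.0989 missed the threshold of 0.05. Its rank by p was 106 of 10285 genes. The adjusted p was 0.0433, past the threshold, when genes at 0 in any rat were left out of the test. Vehicle rat 11, the shallowest library, had the highest Esrrg, and without that rat the log2 fold change was -0.99. The locus of Esrrg (ENSRNOG00000002593) is chr13:111109756-111326800.

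The slow fiber markers were also lower in all olanzapine rats, and their part in the Esrrg difference was not tested. Within the olanzapine group the order was not the same, since rat 10 had the highest Esrrg (2.40 FPKM) and the lowest slow fiber sum (2830 FPKM), while rat 4 had a slow fiber sum of 7295 FPKM and 1.57 FPKM of Esrrg. Among the vehicle rats, rat 11 had the highest Esrrg and the lowest slow fiber sum. Myl2 weighed most in the sums of vehicle rats 3, 9 and 11. It held 18062, 10507 and 8234 FPKM of 34210, 21005 and 18924 FPKM. The single markers were divided in the deposited FPKM, in part by small margins. Vehicle rats 9 and 11 were close for Myl3 (2798 and 2796 FPKM) and Tnnc1 (1783 and 1815 FPKM). Tnnt1, Myl2, Myl3, Tpm3 and Myoz2 were lowest in vehicle rat 11. Myh7, Tnni1, Tnnc1, Atp2a2 and Casq2 were lowest in vehicle rat 9, which also had the lowest Esrrg of its group (3.88 FPKM).

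Esrrb, which encodes ERRβ, was at 0.19, 0.10 and 0.34 FPKM in the olanzapine rats, against 0.43, 0.39 and 0.19 FPKM in the vehicle rats. If the lowest value, scaled by depth, is 1 read, these correspond to 2, 1 and 3 reads in the olanzapine rats and 5, 3 and 1 reads in the vehicle rats, each within 0.0531 of a whole number. A difference was not detectable at this depth. The locus is chr6:119708425-119754191.

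Nrf1, nuclear respiratory factor 1, binds promoters of respiratory chain genes and of Tfam. It was at 3.27, 2.19 and 2.81 FPKM in the olanzapine rats, against 3.24, 2.86 and 2.21 FPKM in the vehicle rats, nearly the same range (log2 fold change -0.01, interval from -0.47 to 0.46, limma adjusted p = 0.992). Tfam encodes the protein that packages mitochondrial DNA and starts its transcription. It was at 40.6, 40.0 and 40.7 FPKM in the olanzapine rats, against 52.0, 38.2 and 44.9 FPKM in the vehicle rats. The olanzapine values lay within the vehicle range (log2 fold change -0.14, interval from -0.53 to 0.24, limma adjusted p = 0.711). The loci are chr4:57139898-57198685 for Nrf1 and chr20:20760386-20772300 for Tfam.

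**Figure D2:**
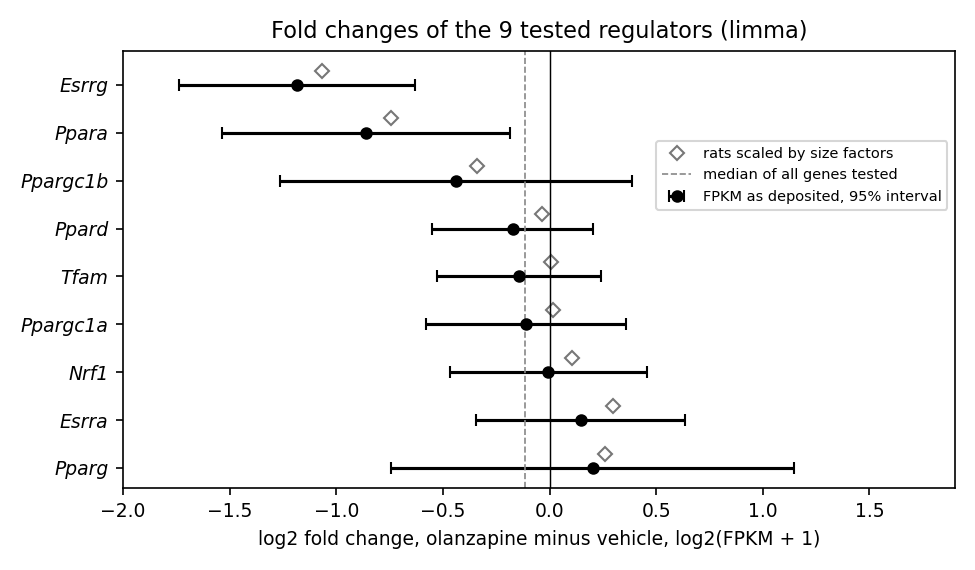
Log2 fold change (olanzapine minus vehicle) of the 9 tested regulators with 95% intervals from limma (black circles), and with the rats scaled by size factors (open diamonds). The intervals of Esrrg (-1.74 to -0.63) and Ppara (-1.53 to -0.19) lie below 0, and the other 7 include 0.

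The order of the levels differed between the groups in the middle of the range. In the olanzapine rats the order of mean FPKM was Esrra (80.3), Tfam (40.4), Ppard (7.67), Ppargc1a (4.15), Nrf1 (2.76), Ppara (2.37), Esrrg (1.83), Ppargc1b (1.66), Pparg (1.57) and Esrrb (0.21). In the vehicle rats it was Esrra (72.7), Tfam (45.1), Ppard (8.78), Esrrg (5.52), Ppara (5.04), Ppargc1a (4.59), Ppargc1b (2.78), Nrf1 (2.77), Pparg (0.96) and Esrrb (0.34). Esrrg was thus in place 4 in the vehicle rats and in place 7 in the olanzapine rats. Ranges of neighbors overlapped from Nrf1 down to Pparg in the olanzapine rats and from Esrrg down to Nrf1 in the vehicle rats. The order within those stretches is not resolved. Nor is the place of Ppargc1a in the olanzapine rats, whose lowest value (3.49) was below the highest of Ppara (3.76) and Pparg (3.58).

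Within each family the share of each gene in the summed FPKM does not depend on how rats are scaled to one another. Esrrg made up 2.29, 3.00 and 1.54% of the ERR family in the olanzapine rats, against 6.93, 6.21 and 7.65% in the vehicle rats. The mean shares were 2.28% ± 0.730 in the olanzapine rats and 6.93% ± 0.717 in the vehicle rats (SD, n = 3 each). No olanzapine rat reached a vehicle rat, which gives p = 0.1 in a 2-sided exact permutation test, the smallest p that 3 rats against 3 allow (adjusted over 8 shares, p = 0.4). Esrra took the counterpart, 97.5% ± 0.617 in the olanzapine rats and 92.6% ± 0.510 in the vehicle rats (exact permutation test, p = 0.1, adjusted p = 0.4), and Esrrb stayed under 1% in every rat. The ERR family summed to 68.5, 80.1 and 98.4 FPKM in the olanzapine rats, against 77.6, 62.4 and 95.6 FPKM in the vehicle rats.

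In the PPAR family Ppard held the majority in every rat, 67.0% ± 7.88 in the olanzapine rats and 59.9% ± 4.96 in the vehicle rats (exact permutation test, p = 0.4). Ppara held 12.9, 32.7 and 16.6% in the olanzapine rats, against 31.3, 28.6 and 40.7% in the vehicle rats, with olanzapine rat 10 inside the vehicle range (exact permutation test, p = 0.3). Pparg held 25.7, 3.74 and 7.48% in the olanzapine rats, against 5.76, 8.70 and 5.11% in the vehicle rats (exact permutation test, p = 0.7). The share in olanzapine rat 4 was the outlying one. Ppargc1a held 72.5% ± 6.64 of the PGC-1 pair in the olanzapine rats and 64.6% ± 11.5 in the vehicle rats (exact permutation test, p = 0.4).

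**Figure D3:**
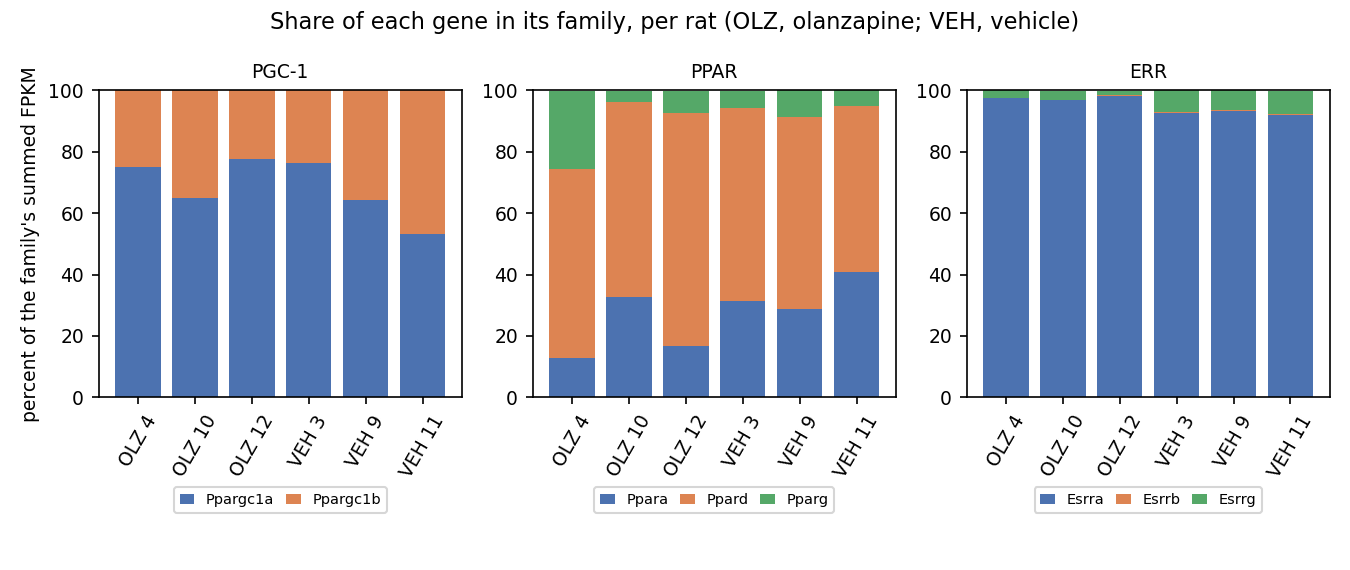
Percent of the summed FPKM of the PGC-1, PPAR and ERR families held by each gene, 1 stacked bar per rat, olanzapine rats (OLZ) left of vehicle rats (VEH). The green Esrrg segment is 1.54-3.00% in the olanzapine bars and 6.21-7.65% in the vehicle bars.

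The proteins that work beside PGC-1 were examined next, as a list of RXR partners, coactivators and corepressors of which 18 were tested. None passed the adjusted threshold, 3 had an unadjusted limma p under 0.05 and all of these were lower (9.45% of all tested genes were), and 5 were lower without overlap of the groups and none higher (27.8% of the list, beside 14.6% of all tested genes lower and 5.12% higher). The median log2 fold change was -0.24 (all genes, -0.11). Among the genes of smallest p were Ncor1, a nuclear receptor corepressor, and Nr0b2, the corepressor SHP. Ncor1 was at 9.47, 8.28 and 7.47 FPKM in the olanzapine rats, against 13.2, 13.2 and 14.6 FPKM in the vehicle rats (log2 fold change -0.65, limma adjusted p = 0.176). Nr0b2 was at 3.44, 5.15 and 2.01 FPKM in the olanzapine rats, against 7.14, 7.15 and 7.52 FPKM in the vehicle rats (log2 fold change -0.93, limma adjusted p = 0.206). Lpin1, a phosphatidate phosphatase that also coactivates PPARα with PGC-1α, had the opposite sign, with 25.1, 25.0 and 21.4 FPKM in the olanzapine rats, against 16.5, 11.1 and 23.5 FPKM in the vehicle rats, with overlap (log2 fold change 0.51, limma adjusted p = 0.420). The RXR partners Rxra, Rxrb and Rxrg overlapped between the groups. The Poisson test called none of this list, nor of the lists of inducers and of mitochondrial DNA genes described next, at an adjusted p under 0.05.

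Genes that act on PGC-1 itself, the kinases, deacetylase and transcription factors that induce or modify it, showed a median log2 fold change of -0.07 over 17 tested members. None passed the adjusted threshold, and 2 were lower and 1 was higher without overlap (11.8% and 5.88% of the list), which is near the 14.6% and 5.12% of all tested genes. Prkaa1, the AMPK catalytic subunit α1, was at 2.89, 3.44 and 1.78 FPKM in the olanzapine rats, against 6.65, 4.53 and 4.19 FPKM in the vehicle rats (log2 fold change -0.73, limma adjusted p = 0.269). Rnf34, a ubiquitin ligase of PGC-1α, had a log2 fold change of -0.53 (limma adjusted p = 0.290). Mapk14, the p38α kinase that phosphorylates PGC-1α, was at 35.1, 34.6 and 35.1 FPKM in the olanzapine rats, against 24.8, 30.8 and 25.3 FPKM in the vehicle rats (log2 fold change 0.37, limma adjusted p = 0.376). In the deposited FPKM its 3 olanzapine values were close together and above all vehicle values.

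The machinery that works with TFAM on mitochondrial DNA had 13 tested members and a median log2 fold change of -0.19. None passed the adjusted threshold, and 1 was lower without overlap (7.69% of the list), a smaller share than the 14.6% of all tested genes. That gene, Twnk, the mitochondrial DNA helicase, was at 5.97, 6.33 and 5.18 FPKM in the olanzapine rats, against 8.63, 7.03 and 8.44 FPKM in the vehicle rats (log2 fold change -0.40, limma adjusted p = 0.362). The next by p were the mitochondrial topoisomerase Top1mt (log2 fold change -0.37, limma adjusted p = 0.473) and the termination factor family member Mterf2 (-0.42, adjusted p = 0.519). Mterf3, a repressor of mitochondrial transcription in mice, had a log2 fold change of 0.23 (limma adjusted p = 0.658). With size factors the median of this list was -0.06.

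Of the PPAR target genes of lipid use, 26 were tested, and 16 were lower and 2 higher without overlap of the groups (61.5% and 7.69% of the list, beside 14.6% and 5.12% of all tested genes). None passed the adjusted threshold in limma, and 16 had an unadjusted p under 0.05 in the lower direction and 2 in the higher. The median log2 fold change was -0.62, and -0.51 with size factors (all genes, -0.11 and 0.01). Plin2, a protein coat of lipid droplets, was at 6.94, 3.54 and 5.20 FPKM in the olanzapine rats, against 14.6, 11.8 and 19.98 FPKM in the vehicle rats (log2 fold change -1.41, limma adjusted p = 0.0712). Lpl, lipoprotein lipase, was at 79.7, 46.0 and 27.8 FPKM in the olanzapine rats, against 236, 152 and 134 FPKM in the vehicle rats (log2 fold change -1.83, limma adjusted p = 0.0957). Hadha, the α subunit of the mitochondrial trifunctional protein of β-oxidation, was at 155, 162 and 136 FPKM in the olanzapine rats, against 311, 234 and 242 FPKM in the vehicle rats (log2 fold change -0.78, limma adjusted p = 0.145). All olanzapine values of these 3 genes were below all vehicle values. Fitm1, which helps form lipid droplets in muscle, was at 321, 350 and 470 FPKM in the olanzapine rats, against 268, 284 and 202 FPKM in the vehicle rats (log2 fold change 0.59, limma adjusted p = 0.315). The Poisson test called 16 of the 26 lower and 2 higher at an adjusted p under 0.05, where it called 4.00% and 3.92% of all tested genes. That test takes FPKM as counts and so calls abundant genes more readily. Of this list 22 averaged 5 FPKM or more, as did 5804 of the 10285 tested genes. Many of these genes are known to be more active in slow oxidative fibers, whose markers were also lower in the olanzapine rats, and the part of fiber type in these values was not tested.

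The ERR and NRF1 targets of the mitochondrion, genes of the TCA cycle, respiratory chain and ATP synthase, had a median near that of all genes. Of 28 tested, none passed the adjusted threshold, 5 were lower without overlap and none higher (17.9% of the list, near the 14.6% of all tested genes that were lower), and the median log2 fold change was -0.12, beside -0.11 over all genes, with 0.03 under size factors. The Poisson test called 14 of them lower and 4 higher at an adjusted p under 0.05, where it called 4.00% and 3.92% of all tested genes. These shares are not at like abundance, since all 28 averaged 5 FPKM or more, as did 5804 of the 10285 tested genes. Alas1, the first enzyme of heme synthesis and a known PGC-1α target, was at 52.2, 60.6 and 35.3 FPKM in the olanzapine rats, against 76.4, 83.0 and 101 FPKM in the vehicle rats (log2 fold change -0.82, limma adjusted p = 0.206). The mitochondrial chaperonin Hspd1 (-0.67, adjusted p = 0.260) and Etfdh, which passes electrons from fatty acid oxidation to ubiquinone (-0.49, adjusted p = 0.337), were next by limma. Slc25a4, the ADP/ATP carrier of muscle, was at 3669, 4458 and 4693 FPKM in the olanzapine rats, against 3784, 2988 and 3676 FPKM in the vehicle rats, and overlapped (log2 fold change 0.29, limma adjusted p = 0.549). Citrate synthase and the cytochrome oxidase subunits on the list overlapped between the groups as well.

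**Figure D4:**
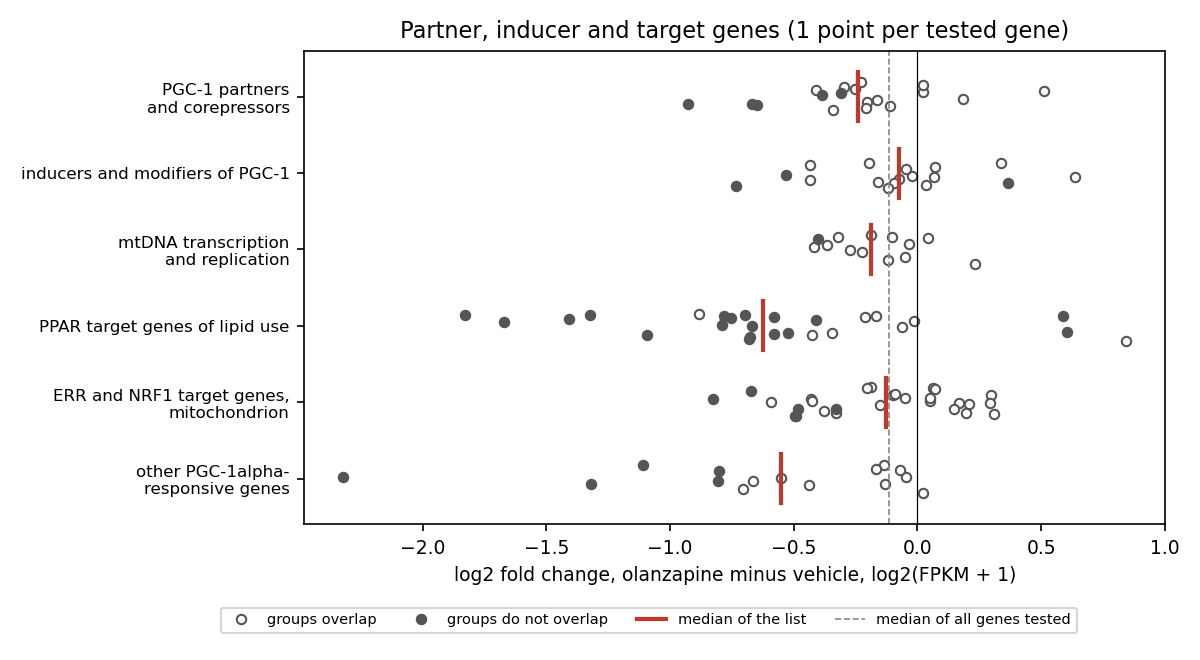
Log2 fold change (olanzapine minus vehicle) of each tested gene of 6 lists, filled where the 3 olanzapine and 3 vehicle values do not overlap, with a red bar at the median of the list and a dashed line at the median of all tested genes (-0.11). The medians of the PPAR targets (-0.62) and of the other PGC-1α-responsive genes (-0.55) lie left of the rest, and that of the ERR and NRF1 targets (-0.12) lies at the dashed line.

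A last list held other muscle genes that respond to PGC-1α in rodents, of which 15 were tested. Fndc5, the precursor of the secreted peptide irisin, fell in the olanzapine rats and was the only gene of the 6 lists past the adjusted threshold. It was at 52.0, 50.6 and 47.0 FPKM in the olanzapine rats, against 127, 95.3 and 106 FPKM in the vehicle rats (log2 fold change -1.11, standard error 0.17, limma adjusted p = 0.0380). With the rats scaled by size factors its log2 fold change was -0.96 and the adjusted p was 0.0764, and the call was also lost with no filter on low values, without the variance trend and in each of the 6 tests that left out 1 rat. Ldhb, the lactate dehydrogenase subunit of oxidative tissue, was at 153, 83.5 and 53.1 FPKM in the olanzapine rats, against 660, 341 and 387 FPKM in the vehicle rats (log2 fold change -2.32, limma adjusted p = 0.0525). Gpx1, an antioxidant peroxidase, was at 307, 185 and 330 FPKM in the olanzapine rats, against 815, 639 and 566 FPKM in the vehicle rats (log2 fold change -1.32, limma adjusted p = 0.0869). In total 5 of the 15 were lower without overlap and none higher (33.3% of the list, beside 14.6% of all tested genes lower), and the median log2 fold change was -0.55, beside -0.11 over all tested genes. Slc2a4, the insulin-responsive glucose transporter GLUT4, was at 248, 275 and 260 FPKM in the olanzapine rats, against 267, 235 and 270 FPKM in the vehicle rats (log2 fold change 0.02, limma adjusted p = 0.957). As with the PPAR targets, slow fiber markers were lower in the same rats.

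The genes whose profile over the 6 rats was nearest to that of Esrrg, by the root mean square difference of centered log2(FPKM + 1) among 3934 genes of at least 10 FPKM, were Hspb6 (0.21), Synpo2l (0.22) and Twf2 (0.22). Hspb6, a small heat shock protein of muscle, was at 898, 917 and 752 FPKM in the olanzapine rats, against 1845, 1846 and 2077 FPKM in the vehicle rats. The nearest to Ppara were Tomm40l (0.18), Vegfa (0.19) and Ankrd52 (0.19). Vegfa, the angiogenic growth factor, was at 21.6, 30.7 and 15.7 FPKM in the olanzapine rats, against 25.8, 28.5 and 46.7 FPKM in the vehicle rats. As with Ppara, olanzapine rat 12 was lowest and vehicle rat 11 highest in the deposited FPKM. These genes were picked for their profile over the 6 rats, so their values are a description and carry no test.

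**Figure D5:**
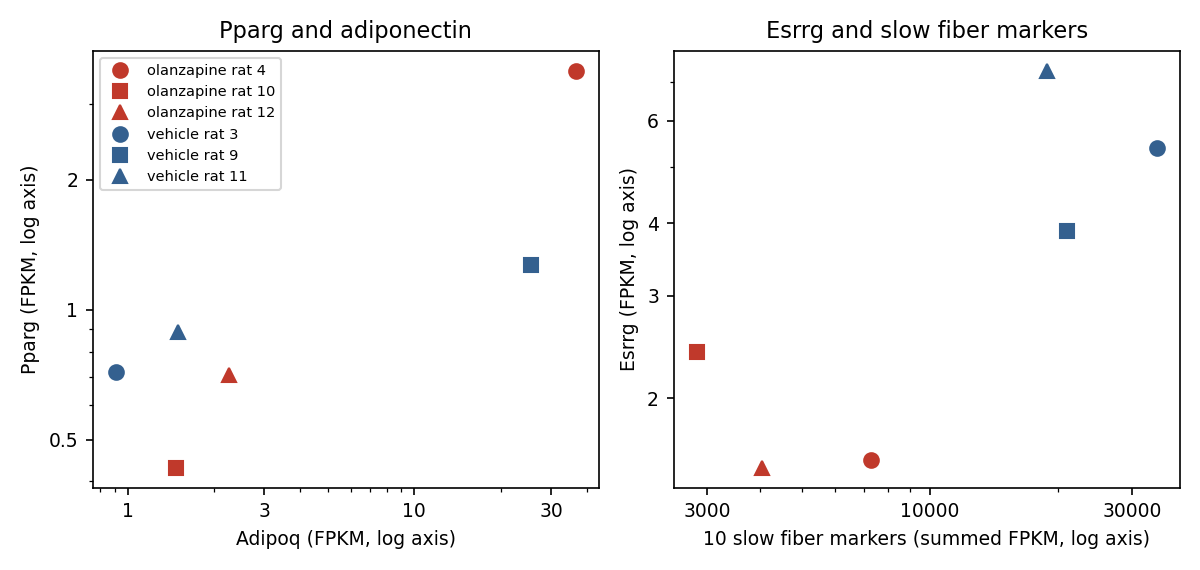
Left, Pparg against the adipocyte gene Adipoq, and right, Esrrg against the sum of 10 slow fiber markers, in FPKM on log axes with 1 point per rat (olanzapine red, vehicle blue). Olanzapine rat 4 and vehicle rat 9 lie highest in both measures of the left panel, and on the right the groups separate on both axes while olanzapine rat 10 has the lowest slow fiber sum and the highest Esrrg of its group.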

How the data were processed

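Gastrocnemius RNA of 3 olanzapine and 3 vehicle rats had been sequenced by the authors (unstranded TruSeq libraries, single end, 50 cycles), aligned to Rn5 with TopHat 2.0.9 and summarized per Ensembl gene with Cufflinks 2.2.1 as FPKM from uniquely mapped reads. The deposited FPKM were used as given, so reads of overlapping or antisense genes cannot be told apart by strand. Whether the groups overlapped was judged on these values without further scaling. The authors' columns of means, fold changes and p-value marks from their own test were not used. The 10285 genes averaging 1 FPKM or more were compared on log2(FPKM + 1) with limma 3.58.1 (R 4.3.3), moderated with a variance trend, 2-sided, with Benjamini-Hochberg adjustment over all tested genes. This scale understates the change of low genes. Where a symbol had several rows, that of the highest mean was taken. From each list the genes past the threshold were named, filled up to 3 by smallest p, with the gene of smallest p of opposite sign to the median. 1 gene named by this rule is not reported here. The members and lists were chosen with earlier results of these data known. Alternatives were other pseudocounts (0.1, 0.5), filters, scalings, a Poisson test and leaving out each rat. Read totals are not part of the table, and relative depth was taken from the steps between values under 0.5 FPKM. The script was tested on simulated data.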

Additional observations from a re-analysis of the deposited data

How the results depend on the processing

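With 3 rats per group and depth known only in relative terms, differences of the size seen in Ppargc1b or Pparg could not be resolved, and fold changes of genes near 1 FPKM depend on the pseudocount. No paired analysis was made, because the labels do not say whether rats of the groups were handled in pairs. Among the members, the calls were 0 in limma and stayed at 0 in every alternative except leaving out genes at 0 in any rat, where 1 was called (Esrrg, log2 fold change -1.18, adjusted p = 0.0433). Over its 14 alternatives Esrrg remained lower, from -1.65 to -0.99, with adjusted p from 0.0433 to 0.385, and from 0.0816 to 0.385 with 1 rat left out (log2 fold change -1.38 to -0.99). Ppara also remained lower, from -1.14 to -0.63, with adjusted p from 0.196 to 0.679. The ends at -1.65 and -1.14 came from the Poisson test, whose fold change is a ratio of summed FPKM with no pseudocount. Median-ratio size factors turned the signs of Ppargc1a (0.017), Nrf1 (0.11) and Tfam (0.0082), none of them called under any setting. With 1 rat left out, the log2 fold change ran from -0.25 to 0.025 for Ppargc1a, from -0.12 to 0.11 for Nrf1 and from -0.0025 to 0.29 for Esrra, and the difference in the Pparg share ran from -0.917 to 10.1 percentage points, negative without olanzapine rat 4. Pparg averaged under 1 FPKM without that rat and got no fold change there, and of the members only Esrra, Tfam and Ppard passed a filter at 5 FPKM. In the pathway lists 1 gene was called, against 0 with no filter, with size factors and without the variance trend, 2 with a pseudocount of 0.1 or 0.5, 3 with a filter at 5 FPKM or with totals without the 50 most abundant genes, 5 with genes at 0 left out, 42 in the Poisson test and 0 to 2 with 1 rat left out. Over all genes the 52 calls became 27 with no filter, 102 with genes at 0 left out, 33 with size factors, 814 in the Poisson test and 14 to 62 with 1 rat left out.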

Other observations

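Pdk4, Ucp3 and Angptl4, PPAR targets known to rise with fasting overlapped between the groups, and were chosen after their values had been seen. Pdk4, the kinase that turns off pyruvate dehydrogenase, was at 31.7, 44.0 and 199 FPKM in olanzapine rats 4, 10 and 12, against 100, 48.7 and 119 FPKM in vehicle rats 3, 9 and 11 (log2 fold change -0.34, limma adjusted p = 0.824). Ucp3, a mitochondrial uncoupling protein of muscle, was at 20.6, 30.9 and 79.2 FPKM in the olanzapine rats, against 32.6, 9.26 and 26.7 FPKM in the vehicle rats (log2 fold change 0.84, limma adjusted p = 0.513). The Poisson test, which has no term for the spread between rats, called Ucp3 higher (adjusted p = 0.0006). Angptl4, an inhibitor of lipoprotein lipase, was at 1.37, 1.15 and 8.71 FPKM in the olanzapine rats, against 6.31, 0.90 and 2.66 FPKM in the vehicle rats (log2 fold change -0.02, limma adjusted p = 0.993). Olanzapine rat 12 had the highest value of all 6 rats for each of these genes, and vehicle rat 9 was the lowest vehicle rat for each. Under the deposited scaling, the same olanzapine rat had the lowest Ppara (1.56 FPKM), Ppargc1a (3.49 FPKM) and Ppargc1b (1.01 FPKM) of all rats. Ppargc1a was nearly as low in vehicle rat 9 (3.53 FPKM). With the rats scaled by size factors only Ppargc1b was lowest there, while Ppara was lowest in olanzapine rat 4 and Ppargc1a in vehicle rat 9.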
